A study of Mus musculus with 6 samples.

Results

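The 7 genes described here encode the cytosolic calcium buffers calbindin D28k (Calb1), calretinin (Calb2) and parvalbumin (Pvalb) and the plasma membrane calcium ATPases Atp2b1, Atp2b2, Atp2b3 and Atp2b4, which are commonly called PMCA1 to PMCA4. They were chosen by symbol, with earlier results of these data known. They make up 7 of the 24421 gene symbols of the count table. All 7 passed the filter on low counts that left 15988 genes for testing. Bulk RNA-seq was performed on cochlear explants of wild-type (WT) mice taken at postnatal day 2, with 3 control and 3 neomycin samples, each made from 6 to 8 cochleae. The explants were cultured for 12 h, exposed to neomycin at 1 mM for 6 h and kept for 5 further days with EdU at 10 μM, a label of DNA synthesis. The control samples are those labelled as control, taken here as explants without neomycin, although the protocol text of the labels gives neomycin for all 6. The design text of the series names a cultured cell line that does not match the sample labels, and the sample labels were followed. Per the study's methods, the tectorial membrane, the modiolus (which holds the cell bodies of the auditory neurons) and the strial anlage were removed before culture, so the explant held the sensory epithelium with surrounding tissue.

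Hair cells (HCs), the mechanosensory cells of the cochlea, let calcium in through the transduction channels of their hair bundles and through voltage-gated channels at their synapses. Mobile EF-hand proteins such as calbindin, calretinin, parvalbumin and oncomodulin bind that calcium within the cytosol, and the plasma membrane pumps then expel it at the cost of ATP. PMCA2, the product of Atp2b2, is the pump of the stereocilia of outer hair cells (OHCs), and its loss causes deafness and imbalance in mice. PMCA1 is expressed in most cells and in HCs is found at the basolateral membrane. Neomycin is an aminoglycoside antibiotic that kills HCs, and the comparison asks how the transcripts of these buffers and pumps stood 5 days after such an insult.

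Levels are given as CPM, counts scaled to a common library size with TMM, with the mean ± SD of 3 samples. To be called lower or higher, a gene needed more than 1.5-fold change together with an adjusted p-value under 0.05 in edgeR's quasi-likelihood test, with Benjamini-Hochberg adjustment over all 15988 genes. Of the 7 genes, 4 were called lower after neomycin (Calb2, Pvalb, Atp2b2 and Atp2b4) and 0 were called higher, beside 6.6% of all tested genes called lower and 2.24% called higher (8.84% in either direction). By the adjusted p-value alone, 5 of the 7 were lower and 0 higher, beside 16.1% and 12.9% of all tested genes. All 7 log2 fold changes were below 0, beside 8074 of the 15988 tested genes, so none of the 7 could be higher at any p-value. DESeq2 and limma-voom called the same 4. In 5 of the 7 genes every neomycin sample lay below every control sample, a pattern held by 22.5% of all tested genes. The median log2 fold change was -0.64 over the 7 genes and 0.00 over all tested genes. The labels name no separate cultures or litters behind the replicates, so p-values measure the spread between these pooled samples.

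**Figure D1:**
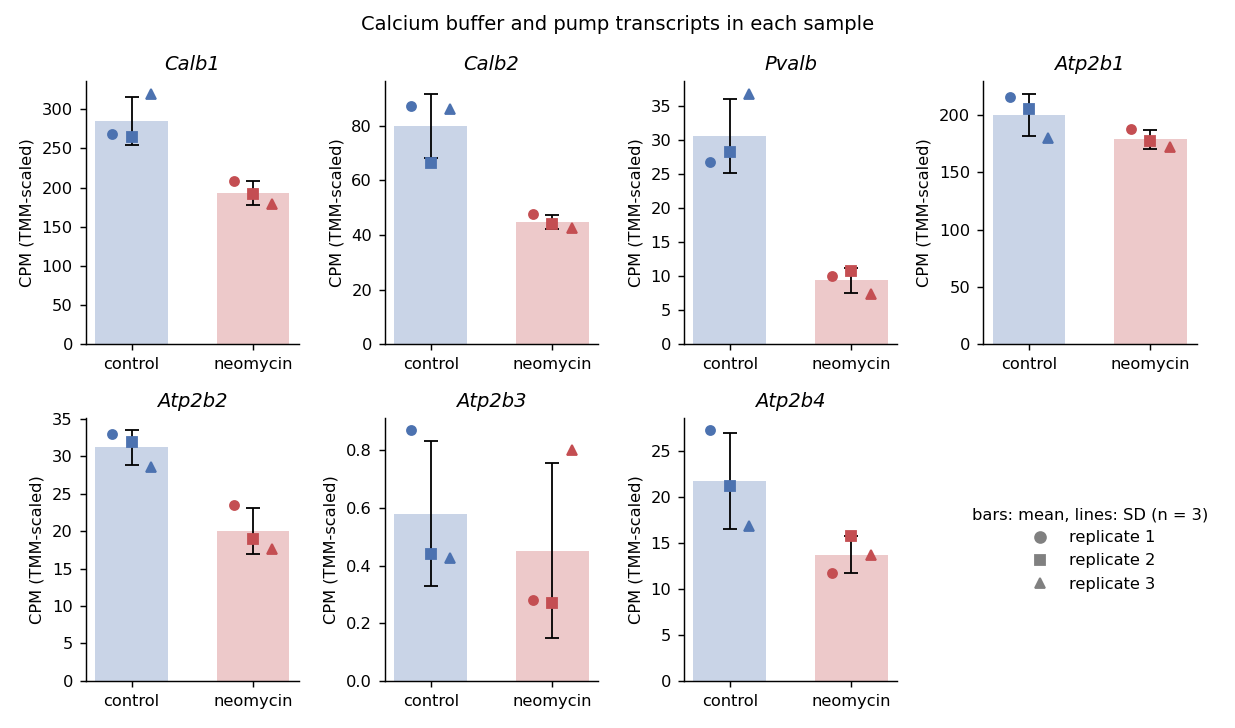
Levels of the 7 transcripts in CPM (y axis, one panel per gene, each with its own scale from 0) in the control and neomycin samples (x axis); points are samples with one marker per replicate number, bars are means and lines the SD of 3 samples. Calb1, Calb2, Pvalb, Atp2b2 and Atp2b4 show every neomycin sample below every control sample, while the groups overlap in Atp2b1 and Atp2b3.

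Promoter windows were available for 4 of the 7 genes, and those of the buffer that fell most and of 2 pumps with different results are shown, because Pvalb and Atp2b2 each have several annotated starts that the gene-level counts cannot separate. Each window is the 250 bases before a transcription start in RefSeq on GRCm38.p6, read 5′ to 3′ on the strand of the gene. Capitals mark matches, on either strand, to 6 short motifs: the E-boxes CAGCTG and CAGGTG, the POU4 core ATTAAT, the TEAD core GGAATG, the GC box GGGCGG and the TATA box TATAAA. The windows lie at chr15:78206401-78206650 and chr15:78204238-78204487 for Pvalb, at chr6:113934682-113934931 and chr6:113891540-113891789 for Atp2b2, all on the minus strand, and at chr10:98914902-98915151 on the plus strand for Atp2b1.
Pvalb start 1: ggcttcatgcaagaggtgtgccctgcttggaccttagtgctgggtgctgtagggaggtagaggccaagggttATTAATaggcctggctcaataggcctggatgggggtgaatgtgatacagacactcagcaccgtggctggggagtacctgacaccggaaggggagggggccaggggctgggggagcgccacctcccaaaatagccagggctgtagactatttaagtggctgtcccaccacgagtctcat
Pvalb start 2: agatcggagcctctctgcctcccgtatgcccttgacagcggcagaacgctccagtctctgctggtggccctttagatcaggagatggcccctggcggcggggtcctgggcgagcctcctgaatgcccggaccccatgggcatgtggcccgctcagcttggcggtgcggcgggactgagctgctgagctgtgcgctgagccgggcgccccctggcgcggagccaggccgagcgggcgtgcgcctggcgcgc
Atp2b2 start 2: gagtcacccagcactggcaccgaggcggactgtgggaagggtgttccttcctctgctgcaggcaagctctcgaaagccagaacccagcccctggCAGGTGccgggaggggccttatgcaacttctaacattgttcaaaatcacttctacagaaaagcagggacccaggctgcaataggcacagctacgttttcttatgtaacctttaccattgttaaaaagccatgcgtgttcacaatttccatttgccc
Atp2b2 start 3: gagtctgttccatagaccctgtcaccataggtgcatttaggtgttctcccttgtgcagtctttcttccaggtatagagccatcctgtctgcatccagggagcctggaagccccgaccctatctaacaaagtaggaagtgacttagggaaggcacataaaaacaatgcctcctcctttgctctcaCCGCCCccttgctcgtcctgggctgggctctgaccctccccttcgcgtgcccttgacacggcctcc
Atp2b1 start 2: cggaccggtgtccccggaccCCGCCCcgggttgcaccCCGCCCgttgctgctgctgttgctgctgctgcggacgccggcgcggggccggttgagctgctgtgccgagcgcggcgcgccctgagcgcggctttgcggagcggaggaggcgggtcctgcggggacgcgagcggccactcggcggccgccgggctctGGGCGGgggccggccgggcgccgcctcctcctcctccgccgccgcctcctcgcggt
The first Pvalb window held 1 match to ATTAAT, which 4.39% of 32851 promoter windows of the same length contained. The second Pvalb window, with a GC content of 71.6% against 58.4% in the first, held no match to the 6 motifs. The second Atp2b2 window held 1 match to CAGGTG, found in 17.2% of all windows, and the third held 1 GC box, found in 32.7%. The Atp2b1 window held 3 GC boxes and had a GC content of 80.8%, above that of 99% of the windows. Not printed are the other starts of Atp2b2 and Atp2b1, whose windows overlap exons of the genes by 138 and 236 bases, and the start of Atp2b4. They held matches too, with a CAGGTG E-box, a TEAD core and a GC box for Atp2b2, 4 GC boxes for Atp2b1 and a TEAD core for Atp2b4.

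The 3 buffers were lower after neomycin by unequal amounts, in the order Pvalb, Calb2 and Calb1, and in none of the 3 ratios between them did the groups overlap (exact permutation p of 0.1 each). Parvalbumin, the slow calcium buffer of fast muscle and of many neurons, is present in HCs and is encoded on chromosome 15 (chr15:78191114-78206400, minus strand, 1041 bases of exon). Pvalb stood at 26.8, 28.3 and 36.9 CPM in control replicates 1, 2 and 3 and at 9.98, 10.8 and 7.39 CPM in neomycin replicates 1, 2 and 3. The groups were far apart, and the spread within each was small beside the gap between them. The mean fell from 30.7 ± 5.48 to 9.39 ± 1.78 CPM. The log2 fold change was -1.71 (SE 0.15), with an adjusted p-value of 1.38e-05 by edgeR. Only 1.38% of the tested genes had a lower log2 fold change. The counts behind these values ran from 397 to 2076 reads per sample.

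Calretinin marks inner hair cells (IHCs) and many auditory neurons in the adult cochlea and is encoded at chr8:110137502-110168210 on the minus strand. Calb2 stood at 87.2, 66.2 and 86.3 CPM in the control samples and at 47.5, 44.0 and 42.7 CPM after neomycin. The neomycin samples lay close together and below all controls, of which control replicate 2 was the lowest. The mean fell from 79.9 ± 11.9 to 44.8 ± 2.49 CPM, and edgeR gave -0.84 (SE 0.10) on the log2 scale with an adjusted p-value of 0.00014.

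Calbindin D28k is found in both types of HC, and its gene lies at chr4:15881264-15908064 on the plus strand. Calb1 stood at 269, 265 and 320 CPM in the control samples and at 209, 192 and 179 CPM after neomycin. The groups did not overlap, and control replicate 3 was the highest sample. Its mean was 285 ± 30.6 CPM in control and 193 ± 15.2 CPM after neomycin, a log2 fold change of -0.56 (SE 0.09) with an adjusted p-value of 0.00114. With a fold of 0.679 it did not reach the fold threshold and was not called, although it was called with a log2 fold change of -0.59 without control replicate 1, -0.60 without control replicate 2 and -0.62 without neomycin replicate 1.

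Since the 3 buffers were lower by different amounts, their mix was set side by side on a scale of CPM per kilobase of exon. Calb1 made up 43.9 ± 1.71% of the buffer transcripts in control and 53.5 ± 0.763% after neomycin, with 42.3%, 45.7% and 43.7% in the control samples and 54.0%, 52.6% and 53.9% in the neomycin samples. Pvalb went the other way, from 19.6%, 22.6% and 23.5% in control to 12.0%, 13.8% and 10.4% after neomycin. The share of Calb2 was 34.2 ± 3.44% and 34.5 ± 1.13%, with overlapping groups. The exact two-sided permutation test gave 0.1 for the shares of Calb1 and Pvalb, the smallest p that 3 samples against 3 allow, and 0.9 for Calb2. The ratio of Pvalb to Calb1 reads, which needs no length, was 0.107 ± 0.00786 in control and 0.0484 ± 0.00754 after neomycin, again without overlap and with an exact permutation p of 0.1. The summed reads of the 3 buffers stood at 395 ± 43.1 CPM in control and 247 ± 18.9 CPM after neomycin.

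**Figure D2:**
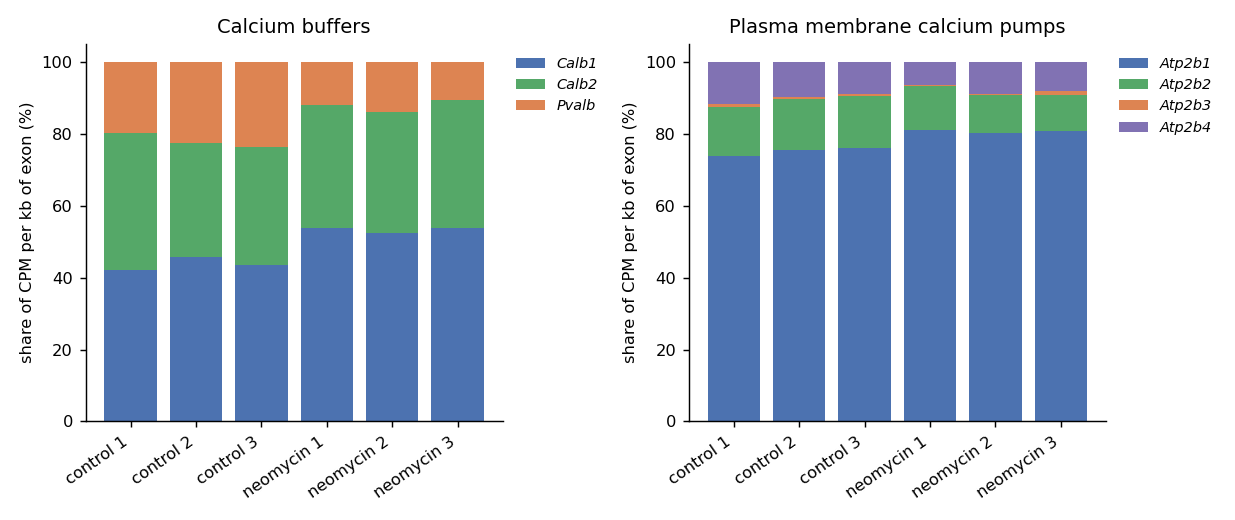
Share of each gene (y axis, percent of CPM per kilobase of exon) within the 3 buffers and within the 4 plasma membrane pumps, one stacked bar per sample (x axis). Calb1 takes 52.6% to 54.0% of the buffer bars after neomycin and 42.3% to 45.7% in control, and Atp2b2 is narrower in each neomycin bar of the pumps.

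Among the plasma membrane pumps, 2 of 4 were called lower, and Atp2b1, the highest per kilobase of exon, was not. Atp2b1 lies at chr10:98914406-99026143 on the plus strand and stood at 216, 205 and 180 CPM in the control samples and at 188, 177 and 172 CPM after neomycin. The groups overlapped, since control replicate 3 was below neomycin replicate 1. Its means of 200 ± 18.6 and 179 ± 8.33 CPM gave a log2 fold change of -0.16 (SE 0.08) with an adjusted p-value of 0.158, which did not pass the threshold. Without control replicate 3 the adjusted p-value was 0.037, at a log2 fold change of -0.22 that stayed under the fold threshold.

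Atp2b2, the pump of OHC stereocilia, lies at chr6:113743831-114042613 on the minus strand and stood at 33.0, 31.9 and 28.6 CPM in control and at 23.5, 18.9 and 17.6 CPM after neomycin. All neomycin samples were below all controls. The mean fell from 31.2 ± 2.27 to 20.0 ± 3.10 CPM, by 0.64 (SE 0.11) on the log2 scale, with an adjusted p-value of 0.0016. The call was lost without neomycin replicate 3, where the log2 fold change was -0.56 and the adjusted p-value 0.00733. Atp2b2 spans 3 annotated non-coding genes, 2 of them on the opposite strand, but shares 0 exon bases with them.

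Atp2b4, a pump found in many tissues, lies at chr1:133699457-133801041 on the minus strand and stood at 27.2, 21.2 and 16.8 CPM in control and at 11.7, 15.7 and 13.7 CPM after neomycin. The groups did not overlap but came close, as control replicate 3 was only just above neomycin replicate 2. The mean fell from 21.7 ± 5.25 to 13.7 ± 2.0 CPM, by 0.67 (SE 0.16) on the log2 scale, with an adjusted p-value of 0.00874. The call was lost without control replicate 1 (log2 fold change -0.47, adjusted p-value 0.0291) and without neomycin replicate 1 (-0.57, adjusted p-value 0.0238).

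Atp2b3, which is known mainly from neurons and lies on the X chromosome (chrX:73503086-73571005, plus strand), was near the detection limit. Its counts were 60, 23 and 24 reads in the control samples and 15, 16 and 43 reads in the neomycin samples. The groups overlapped, with 1 sample in each standing above the other 2. Its log2 fold change of -0.38 (SE 0.52) had an adjusted p-value of 0.622 and was 0.06 without control replicate 1, so no difference was detectable at this depth.

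The mix of the pumps also differed between the groups. Per kilobase of exon, Atp2b1 made up 73.9%, 75.6% and 76.0% of the pump transcripts in control and 81.1%, 80.4% and 80.8% after neomycin. The share of Atp2b2 was 14.1 ± 0.496% in control and 10.9 ± 1.20% after neomycin, without overlap, and that of Atp2b4 was 10.0 ± 1.40% and 7.70 ± 1.32%, with overlapping groups. The exact permutation p was 0.1 for Atp2b1 and for Atp2b2 and 0.2 for Atp2b4. The ratio of Atp2b2 to Atp2b1 reads was 0.156 ± 0.00328 in control and 0.111 ± 0.0119 after neomycin.

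Between genes, levels in control followed the order Calb1 (58.8 ± 6.32 CPM per kilobase of exon), Calb2 (45.8 ± 6.81), Pvalb (29.5 ± 5.26), Atp2b1 (13.2 ± 1.22), Atp2b2 (2.47 ± 0.180), Atp2b4 (1.78 ± 0.428) and Atp2b3 (0.120 ± 0.0522). Neighbours in this order did not overlap between their samples, with the closest pair being Atp2b2 and Atp2b4, at 2.27 to 2.62 and 1.37 to 2.22. After neomycin Pvalb, at 9.02 ± 1.71, stood below Atp2b1, at 11.8 ± 0.547. The separation of these 2 genes in control depended on the length used, since on the longest annotated transcript Pvalb stood at 31.4 ± 5.61 and Atp2b1 at 28.1 ± 2.61 CPM per kilobase in control, with overlapping samples, and at 9.61 ± 1.82 and 25.1 ± 1.17 after neomycin.

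The labelled tissue was checked against marker genes, which moved in the same comparison. Of 20 HC markers 16 were called lower and 0 higher, with the prestin gene Slc26a5 (log2 fold change -3.99), the transduction channel gene Tmc1 (-3.16), the stereocilin gene Strc (-3.11) and the nicotinic receptor gene Chrna9 (-2.70) the furthest down. Myo7a, the HC myosin, fell from 27.2 ± 4.86 to 12.3 ± 1.20 CPM. The summed level of the 20 markers ran from 700 to 747 CPM in control and from 370 to 450 CPM after neomycin, and its 2 largest contributors were Myo6, at 211 and 164 CPM, and Ush1c, at 115 and 130 CPM, neither of them called. These 3 genes were picked after their values were seen. Without Myo6, a check added after seeing the data, the sum ran from 492 to 540 CPM in control and from 222 to 271 CPM after neomycin. In bulk samples, fewer HCs and less RNA per HC cannot be told apart. The part of HC number in the results for the buffers and pumps was not tested.

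The ratios of the buffers and pumps to these markers differed from gene to gene. Myo6 and Ush1c, neither of them called, were part of the summed HC markers here, and Myo6 made up 29% of that sum in control. The ratios to the sum were not computed without these genes. They therefore do not show how a buffer or pump stood against the called HC markers alone. Relative to the summed HC markers, Calb2 stood at 0.109 ± 0.0128 in control and 0.109 ± 0.00520 after neomycin, and Atp2b2 at 0.0428 ± 0.00360 and 0.0486 ± 0.00319. Calb1 was higher by this measure in every neomycin sample, with ratios of 0.391 ± 0.0379 and 0.472 ± 0.0102. Pvalb was lower in every neomycin sample, with 0.0421 ± 0.00719 and 0.0228 ± 0.00320. Atp2b1 was higher in every neomycin sample, with 0.275 ± 0.0278 and 0.438 ± 0.0236. Atp2b4 stood at 0.0298 ± 0.00689 and 0.0337 ± 0.00677, with overlapping groups. The exact permutation p was 0.1 for Calb1, Pvalb, Atp2b1 and Atp2b2, which did not overlap, 0.5 for Atp2b4, 0.6 for Atp2b3 and 1 for Calb2. Relative to Myo7a alone, by contrast, the ratio of Pvalb was 1.16 ± 0.347 and 0.760 ± 0.124 with overlapping groups and an exact permutation p of 0.2. That of Calb1, at 10.7 ± 2.45 and 15.7 ± 0.315, was again higher in every neomycin sample. So were those of Atp2b1 (7.46 ± 0.932 and 14.6 ± 0.72) and Atp2b2 (1.16 ± 0.152 and 1.62 ± 0.0911), while the groups overlapped for Atp2b3 and Atp2b4. Thus the ratio of Pvalb depended on which HC marker it was set against, since relative to Slc26a5, the OHC motor, it stood at 1.21 ± 0.339 and 5.82 ± 0.497. The size of the ratios of the other genes also depended on the marker. Relative to Myo7a, Calb2 stood at 2.97 ± 0.484 and 3.64 ± 0.149 with overlapping groups. Relative to Slc26a5, Calb2 stood at 3.13 ± 0.656 and 28.2 ± 3.98, Calb1 at 11.2 ± 2.33 and 121 ± 13.9, and Atp2b2 at 1.21 ± 0.0347 and 12.5 ± 1.17.

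Other cell types that express these genes were examined in the same way. Of 8 OHC markers 7 were called lower, and their sum ran from 429 to 591 CPM in control and from 67.7 to 84.2 CPM after neomycin. Ocm made up 60.1% of that sum in control, and without it, a check added after seeing the data, the sum ran from 195 to 212 CPM and from 42.5 to 53.7 CPM. Of 6 IHC markers 4 were called lower, namely Otof (-2.34), Fgf8 (-1.68), Slc7a14 (-1.32) and Slc17a8 (-0.88). The sum of the 6 ran from 269 to 295 CPM in control and from 195 to 205 CPM after neomycin and came mostly from Tbx2. Without Tbx2, which was not called, the sum ran from 121 to 137 CPM and from 45.8 to 54.1 CPM. Of 14 neuron markers 4 were called lower, namely the neurofilament genes Nefh (-1.21), Nefl (-1.15) and Nefm (-0.89) and the synaptic gene Snap25 (-1.01), and 3 of the 14 had log2 fold changes above 0. These were Syt1 (0.37, adjusted p-value 0.0346, under the fold threshold), Ntrk3 (0.28), which was called higher at 0.63 with a trend of each library on exon length removed, and Stmn2 (0.04), all picked after their values were seen. The sum of the 14 ran from 239 to 337 CPM in control, with replicate 1 the highest, and from 225 to 242 CPM after neomycin. The groups overlapped in this sum, with an exact permutation p of 0.2. Without Syt1, its largest contributor and the marker with the highest log2 fold change, the sum ran from 187 to 272 CPM and from 157 to 162 CPM, without overlap. That check was added after seeing the data, as were all sums given here without the largest contributor of a list. Control replicate 1 was also the highest sample for Atp2b1, Atp2b2, Atp2b3 and Atp2b4. This was not particular to neuron markers, since it was the highest sample for the HC, IHC, glia and mesenchyme marker sums too, though not for the OHC sum. The part of neuronal RNA in the results for the pumps was not tested.

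Skeletal muscle, a tissue rich in parvalbumin, left few reads, with 7 of 12 muscle markers tested and 0 called, while 2 passed an unadjusted p-value under 0.05 and neither DESeq2 nor limma-voom called any. The sum of the 12 ran from 20.0 to 22.5 CPM in control and from 27.8 to 31.0 CPM after neomycin, and 77.3% of it in control came from Des, which is not specific to skeletal muscle. Des was higher at 0.49 (adjusted p-value 0.00221 by edgeR) but under the fold threshold. Without Des it ran from 4.58 to 5.14 CPM and from 5.31 to 6.61 CPM. The part of muscle RNA in the result for Pvalb was not tested. Supporting cell (SC) markers were called lower in 2 of 15 cases, Prox1 (-1.46) and Fgfr3 (-0.66), of which 1 was left with the trend on exon length removed, and in none higher, and their sum was 7810 to 8480 CPM in control and 8980 to 9800 CPM after neomycin. Epyc, which was not called, made up 67.4% of that sum in control, and without it the sums overlapped, at 2570 to 2830 and 2680 to 3300 CPM. Endothelial markers were called lower in 6 of 8 cases, led by Cldn5 (-3.40), Tie1 (-2.83), Pecam1 (-2.71) and Cdh5 (-2.05), although their sum overlapped between the groups, at 281 to 315 and 267 to 317 CPM. Emcn, which was not called, made up 83% of it in control, and without Emcn the sum ran from 43.2 to 56.1 CPM and from 19.3 to 21.5 CPM. Of 8 macrophage markers 3 were called higher (Tyrobp at 0.93, Cd68 at 0.59 and C1qa at 0.59, with 0 called once the trend on exon length was removed), of 9 Schwann cell and glia markers 1 was called lower (Erbb3, -0.90), and of 8 mesenchyme markers Col1a1 was called lower (-1.20) and Dcn higher (0.64). Stria and melanocyte markers had 0 of 7 tested genes called and 1 at an unadjusted p-value under 0.05. That gene, Kcnj10 (-0.39, adjusted p-value 0.0213), was under the fold threshold and was picked after its value was seen. Erythroid markers had 0 of 1 called, also with 1 at an unadjusted p-value under 0.05. In both lists 0 were called by DESeq2 and limma-voom.

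**Figure D3:**
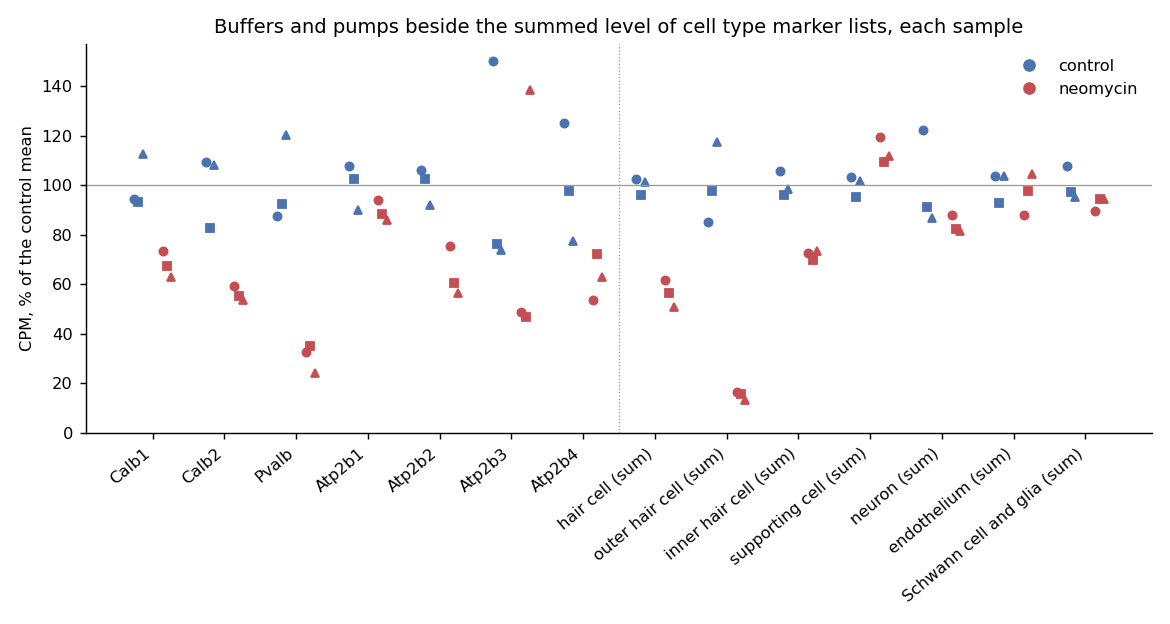
Level of each buffer and pump beside the summed level of cell type marker lists, each sample as a percentage of the control mean (y axis), coloured by group. After neomycin Pvalb and the OHC marker sum lie far below the control mean, and the SC marker sum, most of it Epyc, lies above it.

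The wider calcium machinery was examined by lists of related genes. Among 21 tested EF-hand buffers and sensors other than the 3 above, 7 were called lower and 2 higher, with a median log2 fold change of -0.08. The lower genes were led by Ocm, which encodes oncomodulin, the parvalbumin family buffer of OHCs. Ocm stood at 234, 296 and 379 CPM in control and at 30.5, 30.1 and 25.2 CPM after neomycin, a log2 fold change of -3.41 (SE 0.15) with an adjusted p-value of 5.13e-08 by edgeR. Ocm is also one of the OHC markers above. Genes of the Cabp family of calcium-binding proteins fell as well, with log2 fold changes of -2.85 for Cabp2, -2.34 for Cabp7 and -2.0 for Cabp4, although Cabp4 and Cabp7 were below 2 CPM in control.

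Further genes of this list were picked after their values were seen. Cib2, which is needed for mechanotransduction, fell with a log2 fold change of -0.86 and an adjusted p-value of 5.9e-05. The 2 genes called higher were S100b, an EF-hand protein best known from glia, at 60.6 ± 5.82 and 112 ± 5.89 CPM (log2 fold change 0.88), and S100a13 (0.59), whose call was lost with the trend on exon length removed.

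Pumps of the intracellular stores differed among themselves. Atp2a3, which encodes the endoplasmic reticulum pump SERCA3, stood at 56.9, 49.6 and 52.7 CPM in control and at 7.02, 3.68 and 4.02 CPM after neomycin. Its log2 fold change was -3.44 (SE 0.19), with an adjusted p-value of 2.1e-07, beside -0.67 to -0.16 in the 4 plasma membrane pumps. It was the only one of the 5 SERCA and secretory pathway pumps to be called, while Atp2a2, the SERCA pump of most cells, stayed under the fold threshold at -0.28 (adjusted p-value 0.0126). Of the SERCA regulators only Mrln had enough counts to be tested, with a log2 fold change of 0.83 and an adjusted p-value of 0.04998, and it was called by edgeR and DESeq2 but not by limma-voom, had overlapping groups and lost its call with the length trend removed.

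Of 7 tested sodium-calcium exchangers 1 was called, Slc8a2, which encodes NCX2. It stood at 29.4, 27.0 and 29.7 CPM in control and at 16.2, 14.7 and 14.3 CPM after neomycin, with a log2 fold change of -0.93 and an adjusted p-value of 2.75e-05. The 4 subunits and scaffolds of the plasma membrane pumps had 0 calls by edgeR, DESeq2 and limma-voom and 0 genes at an unadjusted p-value under 0.05, with log2 fold changes of 0.12 (SE 0.13) for basigin (Bsg) and 0.09 (SE 0.07) for neuroplastin (Nptn), the auxiliary subunits of PMCA. Of the 6 mitochondrial calcium uptake genes 0 were called by the 3 tools and 2 had an unadjusted p-value under 0.05. These had log2 fold changes of 0.16 for Micu2 (adjusted p-value 0.108) and 0.24 for Smdt1 (adjusted p-value 0.0411, under the fold threshold). The 5 store-operated entry genes had 0 calls by the 3 tools and 1 gene at an unadjusted p-value under 0.05, with 0.08 for Stim2 and 0.08 for Orai3. That gene, Orai2, was lower in every neomycin sample at -0.50 (adjusted p-value 0.00987) but under the fold threshold, and was picked after its value was seen. The 9 calcium-binding proteins of the endoplasmic reticulum had 0 calls by the 3 tools and 5 genes at an unadjusted p-value under 0.05, with 0.32 for calreticulin (Calr) and -0.06 for calumenin (Calu). Of the 5, 4 had log2 fold changes above 0 and 1 below, Casq1, at -0.50 (adjusted p-value 0.0119), which was called lower at -0.68 with the trend on exon length removed and was also picked after its value was seen. By the adjusted p-value of edgeR alone, 2 of the 9 were higher and 1 lower. The 2 were Calr (adjusted p-value 0.0348) and Sdf4 (0.30, adjusted p-value 0.0142), the latter picked after its value was seen.

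**Figure D4:**
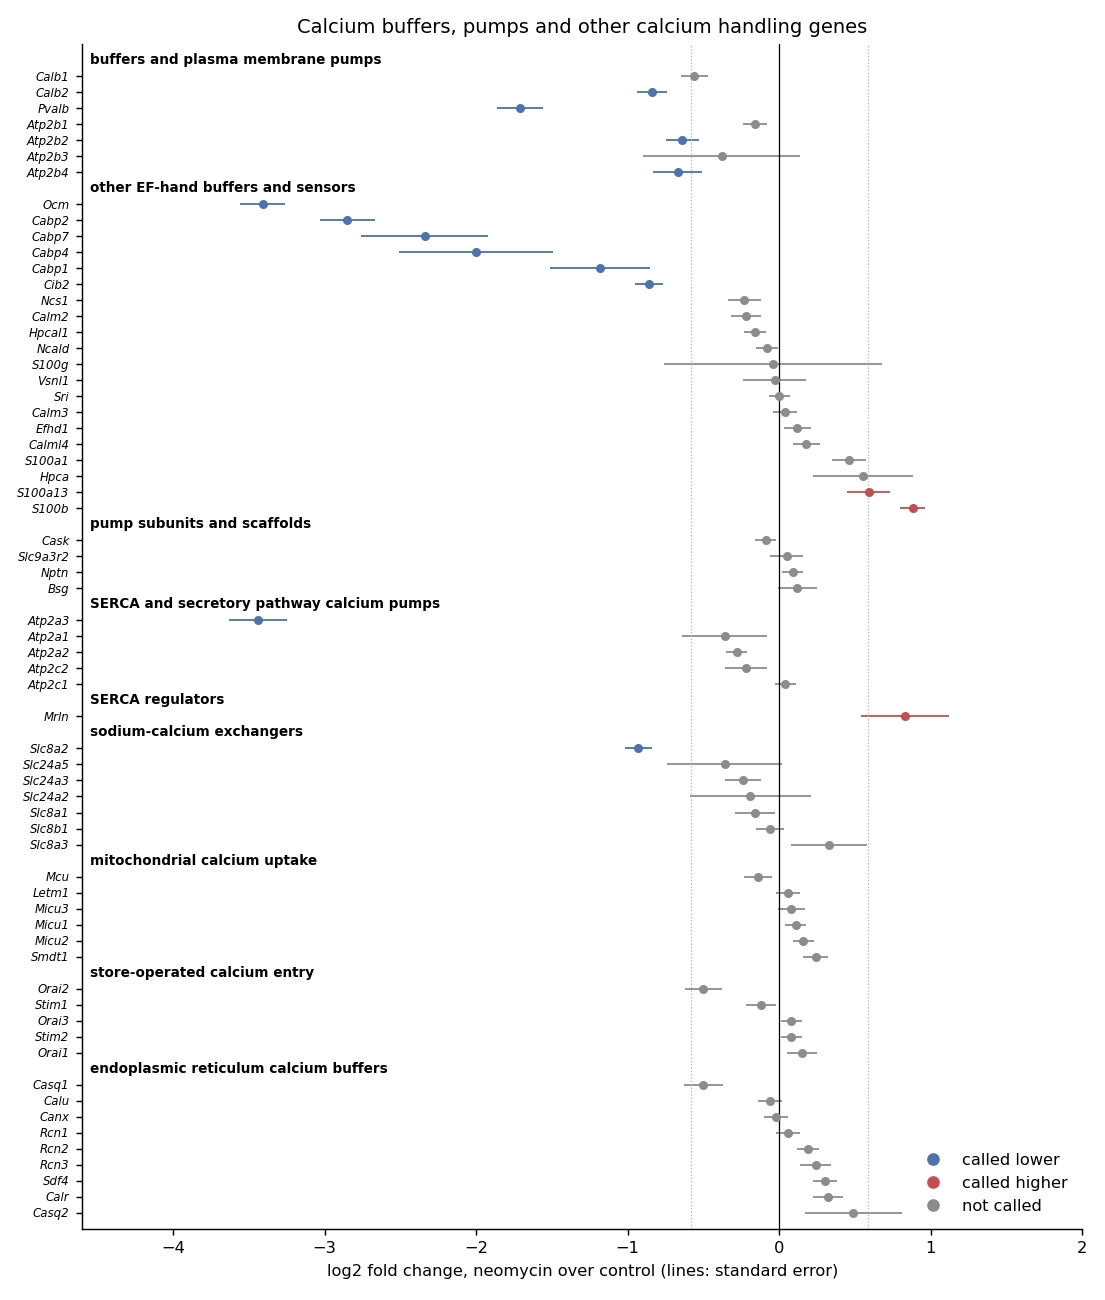
Log2 fold change of neomycin over control (x axis) with its standard error (lines) for tested genes of the buffers, the pumps and the other calcium lists (rows, grouped by list), coloured by call, with dotted lines at the fold threshold of 1.5. Ocm, Atp2a3, Cabp2, Cabp4 and Cabp7 lie further left than any of the 7 buffers and plasma membrane pumps, and most genes of the mitochondrial and endoplasmic reticulum lists lie near or above 0.

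The genes most alike in profile over the 6 samples were named by Pearson correlation of log2 CPM, among tested genes with a mean of at least 1 CPM. This is a description, since all 6 samples enter it and the difference between the groups drives it. Over 14035 genes (14036 for Atp2b3), those closest to Pvalb were Kcnj13 (r = 0.999), F2r and Acbd7 (both 0.997), and of these Kcnj13 (log2 fold change -1.37) and Acbd7 (-1.55) were also called lower. Closest to Calb1 were Rab3ip (0.993), Pdxdc1 and Fscn2 (both 0.992), the last a bundler of actin in stereocilia that fell with a log2 fold change of -1.11. Closest to Calb2 were Wwp2 (0.999), Bcl6b (0.998) and Ppp2r5b (0.997). Closest to Atp2b1 were Adgrl2 and Zc3h4 (both 0.997) and Amer1 (0.995), to Atp2b2 Cttn (0.998), Dhx38 and Ppfia1 (both 0.997), to Atp2b4 Ddhd2 (0.998), Palm2 (0.996) and Nid1 (0.994), and to Atp2b3 Afg3l1 (0.981), Erich1 (0.979) and Cracr2b (0.978). Among the 7 genes themselves, the 3 buffers had r between 0.95 and 0.98, and Atp2b2 had r between 0.88 and 0.90 with each buffer and 0.85 with Atp2b1.

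The pump results shifted with gene length. Atp2b1, Atp2b2 and Atp2b4 have 15218, 12612 and 12248 bases of exon, against 1041 for Pvalb and 1743 for Calb2. With the trend of the libraries on exon length removed, Calb2 (log2 fold change -1.05) and Pvalb (-2.02) were still called, whereas Atp2b2 (-0.42, adjusted p-value 0.00501) and Atp2b4 (-0.44, adjusted p-value 0.0377) fell short of the fold threshold and Atp2b1 turned to 0.09 (adjusted p-value 0.314). The call of Pvalb and of Calb2 held in every other alternative and without each sample in turn.

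**Figure D5:**
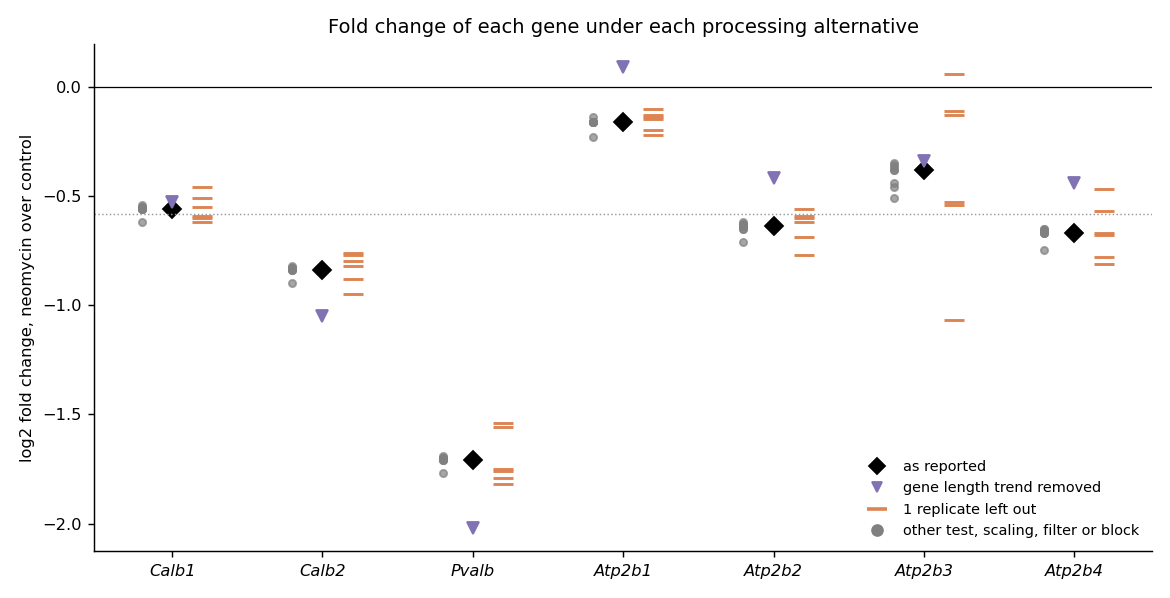
Log2 fold change of neomycin over control (y axis) for each of the 7 genes (x axis) as reported and under each processing alternative, with the dotted line at the fold threshold of 1.5. Pvalb and Calb2 stay below the line throughout, Calb1, Atp2b2, Atp2b3 and Atp2b4 lie on both sides of it, and Atp2b1 and Atp2b3 reach both signs.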

How the data were processed

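RNA was sequenced from 6 samples, 3 control and 3 neomycin. The authors called bases with Casava 1.8, trimmed reads with trimmomatic 0.23, aligned them to UCSC mm10 with Hisat2 and counted them with HTSeq, and they deposited whole-number counts per gene symbol without normalization. Strand setting, treatment of multi-mapping reads and annotation date are not given in the sources used here, so overlapping or near-identical genes may have gained or lost reads. Total counts ran from 50471116 to 66068108 per sample. All 6 count columns were mapped to samples. Within a group, pairs of replicates differed by more than sampling noise (mean chi-square per gene 13.4 to 44.9), so none was treated as a repeat of another.

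Counts were filtered with filterByExpr, scaled with TMM and tested with the quasi-likelihood test of edgeR 4.0.16 (R 4.3.3), neomycin against control, with Benjamini-Hochberg adjustment. The thresholds are those of the study's methods, which used DESeq2. SE was taken as the absolute log2 fold change over the square root of F. Shares and ratios were compared with exact two-sided permutation tests, whose smallest p is 0.1. Alternatives were DESeq2 1.42.0, limma-voom (limma 3.58.1), other scalings, filters and thresholds, a replicate block, each sample left out, and removal of the trend on exon length (lowess, span 0.3), known for 99.2% of tested genes. Positions and lengths came from GENCODE M21 on GRCm38 (mm10), which held 23384 symbols directly and 668 by an older symbol, and promoters from RefSeq. The code was tested on simulated data.

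The 7 genes and the lists were chosen with earlier results of these data known. Named are the 7 genes, up to 4 called genes of a list by the size of the fold change, or the 2 with the highest mean CPM where none was called, the 3 genes most correlated with each of the 7, and those said in the text to be picked after their values were seen. The values of 1 gene of the EF-hand list are not reported here.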

Additional observations from a re-analysis of the deposited data

How the results depend on the processing

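With the trend on exon length removed, 2 of the 7 genes were called lower in place of 4, Atp2b2 (log2 fold change -0.42) and Atp2b4 (-0.44) lost their calls, Atp2b1 turned to 0.09, and genes called higher numbered 233 in place of 358. With library totals Calb1 was called at -0.62, 5 of the 7 were lower, and 233 genes were higher. Without the fold threshold 5 of the 7 were lower, with 2058 genes higher and 2571 lower, and at an adjusted p-value under 0.01 217 genes were higher. The share difference of Calb1 within the buffers was 9.58 percentage points per kilobase and 6.04 by reads not divided by length. Leaving out each sample in turn, the 7 genes gave 3 to 5 lower and 0 higher, and all genes gave 800 to 1159 lower and 237 to 513 higher. The log2 fold changes then ran from -0.62 to -0.46 for Calb1, -0.95 to -0.76 for Calb2, -1.82 to -1.54 for Pvalb, -0.22 to -0.10 for Atp2b1, -0.77 to -0.56 for Atp2b2, -1.07 to 0.06 for Atp2b3 and -0.81 to -0.47 for Atp2b4, and the share differences from -3.96 to -2.83 points for Atp2b2 and 8.77 to 10.5 for Calb1.

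The replicate numbers are shared between the groups but nothing in the labels pairs them, and deviations of same-numbered samples correlated at 0.165, 0.026 and 0.095, with control replicate 2 closest to neomycin replicate 3 (0.032). With the replicate block the same 4 of the 7 genes were called, with 1089 genes lower and 376 higher, and the log2 fold changes were -0.56 for Calb1, -0.83 for Calb2, -1.70 for Pvalb, -0.16 for Atp2b1 (adjusted p-value 0.0468), -0.65 for Atp2b2, -0.44 for Atp2b3 and -0.65 for Atp2b4. Among the cell type lists, removal of the length trend left 0 macrophage markers called higher in place of 3 and 1 neuron marker called higher in place of 0. The cause of these shifts was not tested. Depth limits Atp2b3, with 15 to 60 reads per sample, and no other of the 7 genes.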
